A study of Mus musculus with 16 samples.

Results

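The thrombospondin genes Thbs1, Thbs2, Thbs3, Thbs4 and Comp (cartilage oligomeric matrix protein, the fifth thrombospondin) were followed across 16 RNA-seq libraries of mouse heart ventricle. They were taken by name as the 5 rows whose Ensembl gene IDs map to these symbols, out of 22372 genes in the table, and all 5 passed the filter on low values that left 13331 genes for testing. The family was selected on measured values: the large differences of Comp and Thbs4 between vehicle-treated TAC and sham hearts, and of Comp between THZ1 and vehicle in TAC, were already known. Values for those comparisons are therefore given as a description, without a test on the members, and tests are kept for the sham hearts and for TAC against sham under THZ1.

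C57BL/6J mice, 10 to 12 weeks old at the start and male according to the methods, underwent thoracotomy with or without transverse aortic constriction (TAC), a suture around the aortic arch that raises the pressure against which the left ventricle works. They then received THZ1, a covalent inhibitor of the transcriptional kinases Cdk7, Cdk12 and Cdk13, or its vehicle. The 4 groups were Sham-Veh and TAC-Veh (sham surgery or TAC with vehicle) and Sham-THZ1 and TAC-THZ1 (sham surgery or TAC with THZ1), with 4 libraries in each. Per the labels, THZ1 was given intraperitoneally at 10 mg/kg and 2 times daily, starting on day 1 after surgery and ending on day 60. The methods instead describe a single daily injection, with the same total dose per day. The mice carried no transgene and THZ1 reached the whole animal. The design asks what pressure overload does to ventricular RNA, and what the kinase inhibitor does with and without that load.

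Thrombospondins are secreted calcium-binding glycoproteins of the matricellular kind: they sit in the extracellular matrix and modulate signalling and assembly there rather than bearing load. Thbs1 and Thbs2 form trimers, carry type 1 repeats that Thbs3, Thbs4 and Comp lack, bind the receptors Cd36 and Cd47 and restrain vessel growth, and Thbs1 can release TGF-beta from its latent form. Thbs3, Thbs4 and Comp form pentamers. Thbs4 is known from tendon and from the stressed heart, where it has been linked to the endoplasmic reticulum stress sensor Atf6, and Comp is known from cartilage and tendon, where it binds collagens.

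The 5 genes lie on 5 chromosomes in the mm9 build: Thbs1 (ENSMUSG00000040152.8) at chr2:117937612-117952869 on the plus strand, Thbs2 (ENSMUSG00000023885.7) at chr17:14802507-14831269 on the minus strand, Thbs3 (ENSMUSG00000028047.5) at chr3:89019102-89030759 on the plus strand, Thbs4 (ENSMUSG00000021702.7) at chr13:93521545-93564773 on the minus strand and Comp (ENSMUSG00000031849.7) at chr8:72897447-72905964 on the plus strand. All are protein-coding. Their merged exons spanned 6073 bases for Thbs1, 5927 for Thbs2, 4823 for Thbs3, 3289 for Thbs4 and 2425 for Comp. The reading frames followed the division into trimer and pentamer genes. Thbs1 and Thbs2 were identical at 67.7% of aligned coding bases, the pairs among Thbs3, Thbs4 and Comp at 68.8% to 70.1%, and pairs across the division at 61.5% to 64.2%. The longest stretch shared without a mismatch was 26 bases in both subgroups. It is shown for the closest pair of each, in lower case, because reads of 40 bases were counted and a shorter shared run means that no such read could match both genes without a mismatch.
Thbs1 and Thbs2 (position 2314 of the Thbs1 reading frame): ggagaccgctgtgacaactgccccta
Thbs4 and Comp (position 2287 of the Thbs4 reading frame): cagaccatgaacagtgaccctggcct
No word of 40 bases from any of the 5 genes occurred in a transcript of another protein-coding gene of the annotation.

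The 250 bases before the annotated start were in the RefSeq table for 3 of the 5 genes, and they are printed from GRCm38.p6, a different build from mm9, to set a promoter of a gene that was far higher in TAC-Veh (Thbs4) beside those of a gene that was lower (Thbs2) and a gene with a smaller difference (Thbs3). Capitals mark every match, on either strand, to the motif letters listed after them.
Thbs4 (chr13:92794819-92795068, minus strand): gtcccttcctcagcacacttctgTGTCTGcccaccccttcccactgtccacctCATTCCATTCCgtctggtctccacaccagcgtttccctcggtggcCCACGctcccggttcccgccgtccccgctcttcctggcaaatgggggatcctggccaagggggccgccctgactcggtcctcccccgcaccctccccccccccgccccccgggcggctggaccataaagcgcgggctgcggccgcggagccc
Thbs2 (chr17:14694263-14694512, minus strand): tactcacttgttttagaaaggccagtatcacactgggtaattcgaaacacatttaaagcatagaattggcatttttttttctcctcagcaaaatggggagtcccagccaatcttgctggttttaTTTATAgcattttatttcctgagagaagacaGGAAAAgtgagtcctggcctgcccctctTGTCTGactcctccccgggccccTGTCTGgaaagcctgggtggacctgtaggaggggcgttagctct
Thbs3 (chr3:89214930-89215179, plus strand): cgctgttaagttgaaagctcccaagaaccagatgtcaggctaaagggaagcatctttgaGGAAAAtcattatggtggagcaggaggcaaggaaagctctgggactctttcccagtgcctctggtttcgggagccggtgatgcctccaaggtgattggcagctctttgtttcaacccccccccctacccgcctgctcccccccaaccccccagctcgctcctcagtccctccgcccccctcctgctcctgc
The Thbs4 window had a GC content of 70.8%, against 58.8% for Thbs3, 46.8% for Thbs2 and a median of 52.4% over all windows. It held 2 overlapping matches to GGAATG, the core of the TEAD motif, which 12.6% of all 32851 windows hold. It also held a match to CAGACA (SMAD, in 17.1% of windows) and to CCACG (part of the ATF6 element, in 28.3%). The Thbs2 window held 2 matches to CAGACA and single matches to GGAAAA (NFAT, 20.4% of windows) and TATAAA (the TATA box, 12.4%). Thbs3 held a match to GGAAAA alone. TGANTCA, the AP-1 motif found in 6.75% of windows, was in none of the 3 windows. Such matches are a description of letters, not of bound sites.

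Libraries held between 21431703 and 35812869 counted reads, of which 33.2% to 44.7% were mitochondrial. Between 33 and 11455 reads stood behind each value of a family member. The spread between libraries was wider in TAC-Veh (a median SD of 0.218 in log2 values over genes) than in TAC-THZ1 (0.141), Sham-Veh (0.0980) and Sham-THZ1 (0.0916). All 10 ventricular cardiomyocyte markers were present, with a summed level of at least 1044480 normalized counts in every library, as their label calls for. Of 6 atrial markers, Myl7, Sln and Bmp10 were below the filter in all groups, and the other 3 (Nppa, Dkk3 and Myl4) were above it, with sums given below beside those of other cell types. Normalized counts below are reads divided by the size factor of each library, and levels of different genes are compared only per kilobase of exon.

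In sham hearts the family was mostly Thbs2. Per kilobase of exon, Thbs2 stood at 168 ± 18.5 normalized counts in Sham-Veh (SD, n = 4), 3.76 times the next gene. Thbs1 (44.6 ± 12.6), Thbs3 (41.7 ± 4.29) and Thbs4 (33.2 ± 3.93) followed, and neighbours in that order overlapped. Comp was lowest, at 22.5 ± 4.19, and did not overlap Thbs4. In Sham-THZ1 the order was the same, with Thbs2 between 138 and 175 and Comp at 26.1 or less per kilobase. In TAC-Veh the order turned over: Thbs4 came to 1495 ± 846 and Comp to 1168 ± 631 per kilobase, ahead of Thbs1 at 388 ± 232, while Thbs3 (109 ± 27.2) and Thbs2 (102 ± 19.6) came last. Every pair of neighbours in that order overlapped between libraries. Within each single TAC-Veh library, though, Thbs4 stood above Comp, Comp above Thbs1, and Thbs1 above Thbs3 and Thbs2. In TAC-THZ1 Thbs4 still had the highest mean, at 183 ± 79.6, with Comp (103 ± 44.0) and Thbs2 (101 ± 19.2) close together. Thbs3 followed at 65.4 ± 19.4 and Thbs1 at 54.6 ± 19.0, again with all neighbours overlapping between libraries. Thbs4 stood above Comp within each TAC-THZ1 library, but in library 2 Thbs2 (110 per kilobase) stood above Thbs4 (79.3).

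The total over the 5 genes came to 309 ± 22.1 normalized counts per kilobase in Sham-Veh (SD, n = 4 in each group) and 308 ± 14.5 in Sham-THZ1. It came to 3261 ± 1733 in TAC-Veh, and TAC-THZ1 had 507 ± 139. Thbs2 held 54.1% ± 4.27 of that total in Sham-Veh and 3.71% ± 1.46 in TAC-Veh. Thbs4 and Comp together moved the other way, Thbs4 from 10.7% ± 0.780 to 45.4% ± 2.69 and Comp from 7.28% ± 1.35 to 35.5% ± 1.39. The TAC-Veh totals differed by library from 1412 to 5073 per kilobase. Across those libraries the Thbs4 share ran from 43.2% to 49.1% and the Comp share from 33.7% to 36.9%, whereas the small shares of Thbs2 (2.33% to 5.28%) and Thbs3 (2.77% to 5.97%) each spanned more than 2-fold. TAC-THZ1 libraries lay in between, with a Thbs2 share from 15.5% to 34.3% and a Thbs4 share from 24.7% to 42.9%. Their library 2 had the lowest total (321 per kilobase, within the range of the sham libraries) and the highest Thbs2 share.

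**Figure D1:**
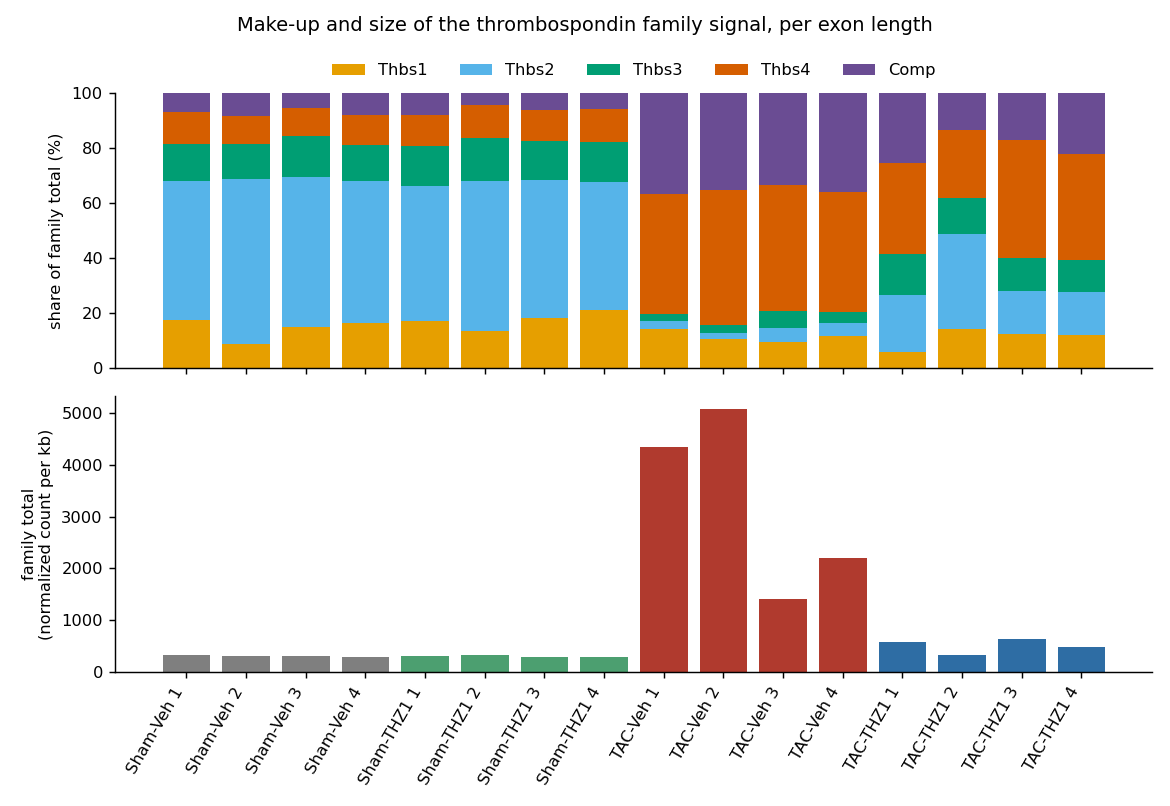
The upper panel stacks the percent of the family total per kilobase held by each gene in each of the 16 libraries, and the lower panel gives the total as normalized count per kilobase. Thbs2 fills 46.2% to 60.0% of every sham bar and under 6% of every TAC-Veh bar, and TAC-THZ1 bars lie between.

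Among the trimer genes, Thbs1 stood at 354, 168, 278 and 283 normalized counts in Sham-Veh libraries 1 to 4 and at 328, 269, 326 and 386 in Sham-THZ1. In TAC-Veh it reached 3814, 3246, 810 and 1560. In TAC-THZ1 it was back at 213, 279, 482 and 353, so that the TAC-Veh libraries stood above all 12 others and those 12 overlapped. TAC-Veh was 8.71-fold above Sham-Veh (log2 fold change 2.92, SE 0.38), and TAC-THZ1 was 7.11-fold below TAC-Veh (log2 fold change -2.65, SE 0.38). Between TAC-THZ1 and Sham-THZ1, the comparison that leaves the TAC-Veh libraries out of the difference, the log2 fold change was -0.03 with a 95% interval from -0.83 to 0.77 (limma, adjusted p = 0.961). Thbs1 is the only member whose mean in TAC-THZ1 (332) lay within 2% of its mean in Sham-THZ1 (327).

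Thbs2, an inhibitor of angiogenesis that also limits matrix metalloproteinases, ran against the others. Its normalized counts were 998, 1125, 995 and 856 in Sham-Veh and 922, 1038, 871 and 816 in Sham-THZ1. They were 674, 701, 442 and 605 in TAC-Veh and 711, 654, 589 and 447 in TAC-THZ1. All 8 TAC values lay below all 8 sham values, and the TAC groups overlapped each other almost fully. The log2 fold change was -0.73 (SE 0.15) for TAC-Veh against Sham-Veh and -0.01 (SE 0.15) for TAC-THZ1 against TAC-Veh, with a 95% interval of the latter from -0.32 to 0.30. Under THZ1 the lower level in TAC passed the test: Thbs2 fell by 0.62 on the log2 scale (SE 0.15, limma, adjusted p = 0.00841, lower in 4 of 4 libraries).

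Among the pentamer genes, Thbs3, which is made by many tissues, stood at 213, 195, 221 and 175 normalized counts in Sham-Veh and at 221, 248, 198 and 212 in Sham-THZ1. TAC-Veh libraries held 589, 678, 406 and 425, all above every sham library, and TAC-THZ1 libraries held 416, 204, 363 and 279. TAC-THZ1 library 2 lay within the sham range and library 1 within the TAC-Veh range. The log2 fold change was 1.35 (SE 0.19) in TAC-Veh against Sham-Veh and -0.75 (SE 0.19) in TAC-THZ1 against TAC-Veh. In TAC-THZ1 against Sham-THZ1 it was 0.47 (95% interval from 0.07 to 0.88), which missed the threshold after adjustment (limma, adjusted p = 0.0811). Without TAC-THZ1 library 2 the log2 fold change was 0.67 and passed (adjusted p = 0.0122), and with all libraries kept it also passed with array weights (limma, adjusted p = 0.0376) and in DESeq2 on recovered reads (adjusted p = 0.0371).

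Thbs4 had normalized counts of 128, 104, 103 and 101 in Sham-Veh and 115, 124, 110 and 117 in Sham-THZ1, the latter with the lowest CV of any member in any group (5.34%). TAC-Veh libraries held 6191, 8191, 2118 and 3163. TAC-THZ1 libraries held 632, 261, 899 and 611, with no overlap either with TAC-Veh above or with the sham libraries below. TAC-Veh was 45.1-fold above Sham-Veh (log2 fold change 5.29, SE 0.36), which placed Thbs4 in position 8 of 13331 genes ordered by that fold change. TAC-THZ1 was 8.18-fold below TAC-Veh (log2 fold change -2.97, SE 0.36). A rise was still seen under THZ1: TAC-THZ1 was 5.17-fold above Sham-THZ1 (log2 fold change 2.23, SE 0.36, limma, adjusted p = 0.00102, higher in 4 of 4 libraries).

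Comp tracked Thbs4 at a lower level. Its normalized counts were 57.3, 65.0, 40.7 and 55.1 in Sham-Veh and 63.2, 36.3, 44.1 and 42.5 in Sham-THZ1. They were 3897, 4338, 1153 and 1936 in TAC-Veh and 364, 106, 267 and 263 in TAC-THZ1, and the TAC groups overlapped neither each other nor the sham groups. TAC-Veh was 51.9-fold above Sham-Veh (log2 fold change 5.50, SE 0.38, position 6 of 13331). TAC-THZ1 was 11.3-fold below TAC-Veh (log2 fold change -3.44, SE 0.38). Under THZ1, Comp rose 5.37-fold in TAC over sham (log2 fold change 2.30, SE 0.38, limma, adjusted p = 0.00122, higher in 4 of 4 libraries). The ratio of Comp to Thbs4 per kilobase came to 0.682 ± 0.137 (vehicle) and 0.546 ± 0.149 (THZ1) in sham hearts, and with TAC it was 0.785 ± 0.0668 under vehicle and 0.579 ± 0.155 under THZ1. Its values overlapped between all groups, while the levels of both genes differed by more than an order of magnitude.

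**Figure D2:**
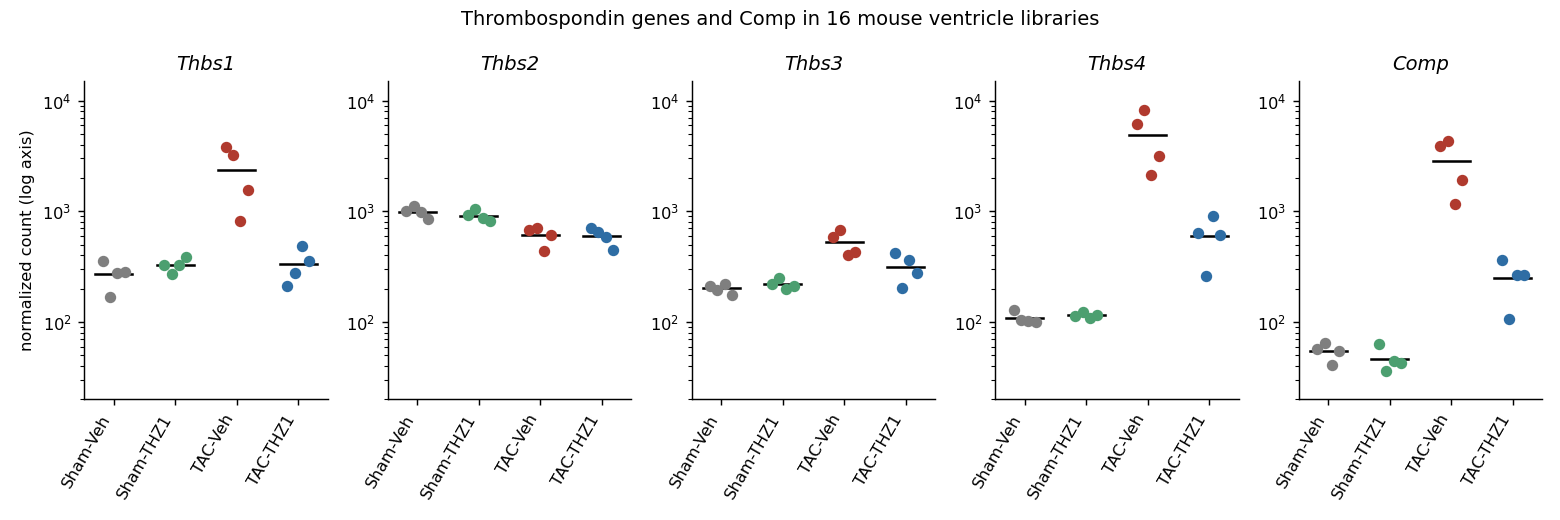
Each point is the normalized count of a gene in a single library on a log axis, and the bar is the group mean of 4 libraries. TAC-Veh points lie above all sham points for Thbs1, Thbs3, Thbs4 and Comp and below them for Thbs2, and TAC-THZ1 points for Thbs4 and Comp lie between the sham and TAC-Veh points.

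In sham hearts THZ1 gave no call on any member. The log2 fold changes of Sham-THZ1 against Sham-Veh were 0.31 for Thbs1 (95% interval from -0.49 to 1.11), -0.12 for Thbs2 (-0.44 to 0.19), 0.13 for Thbs3 (-0.28 to 0.53), 0.10 for Thbs4 (-0.66 to 0.85) and -0.23 for Comp (-1.04 to 0.58). Adjusted p-values in limma ran from 0.952 to 0.988, none of the 5 had an unadjusted p under 0.05, and edgeR and DESeq2 on the recovered reads also called 0 of 5. Over all genes tested, 0.0675% were called in this comparison and 6.88% had an unadjusted p under 0.05. The intervals of Comp and Thbs1 reached beyond a 2-fold difference. These intervals rest on a spread estimated over all 16 libraries, and both genes spread more between TAC-Veh libraries than between sham libraries. Their width is therefore not that of the sham libraries alone. In a limma fit on the sham groups alone, the adjusted p was 0.337 for Thbs1 and 0.519 for Comp.

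In TAC-THZ1 against Sham-THZ1, 3 of the 5 members were called (Thbs4 and Comp higher, Thbs2 lower), where 24.2% of all genes tested were called, 11.4% higher and 12.8% lower. The same 3 had groups that did not overlap, as had 33.4% of all genes. The TAC-THZ1 libraries of this test also belong to the comparison with TAC-Veh, which was known when the members were chosen. In TAC-Veh against Sham-Veh, 4 of the 5 were past 2-fold, as were 8.24% of all genes, and all 5 had groups that did not overlap, as had 37.3% of all genes. In TAC-THZ1 against TAC-Veh 3 of the 5 (Thbs1, Thbs4 and Comp) were more than 2-fold lower, as were 3.19% of all genes, and the same 3 lay below every TAC-Veh library, as did 10.5% of all genes. These last counts are part of what chose the family and are given for scale only. The comparisons share libraries (TAC-Veh stands in both of the last ones), so their values are not independent of each other.

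**Figure D3:**
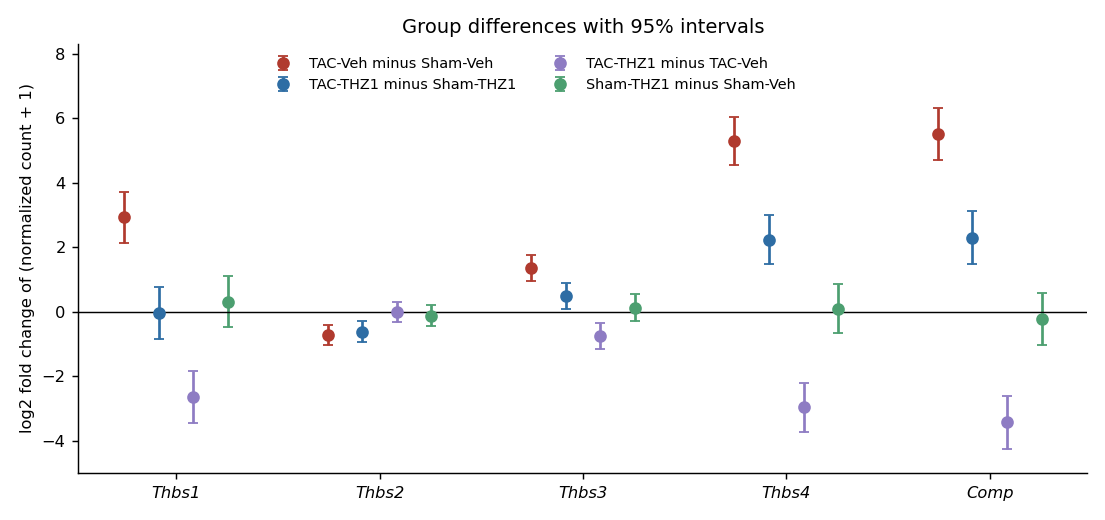
Points are log2 fold changes of normalized count + 1 between groups of 4 libraries, with 95% intervals from the fit over all genes as bars. Thbs4 and Comp are above 0 both in TAC-Veh against Sham-Veh and in TAC-THZ1 against Sham-THZ1, Thbs1 only in the former, Thbs2 is below 0 in both, and all 5 intervals of Sham-THZ1 against Sham-Veh span 0.

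The libraries of a group did not spread evenly. In TAC-Veh, library 3 was lowest for all 5 members and libraries 1 and 2 were highest for all 5, and the ratio of the highest to the lowest library was 4.71 for Thbs1, 3.87 for Thbs4 and 3.76 for Comp but 1.67 for Thbs3 and 1.59 for Thbs2. In TAC-THZ1, library 2 was lowest for Thbs3, Thbs4 and Comp, and also had the highest mitochondrial share of all libraries, 44.7%. Summed levels of 8 markers of activated fibroblasts, the matrix-producing cells of the injured heart, moved with these differences: 69578, 94515, 30846 and 36667 normalized counts in TAC-Veh libraries 1 to 4 and 7510, 4761, 11427 and 9389 in TAC-THZ1, against 3773 to 5056 in Sham-Veh and 3981 to 4920 in Sham-THZ1. All 8 were measured above the filter, though Cthrc1 had a read in only 15 of the 16 libraries, and 2 of them (Ltbp2 and Cilp) recur below. In TAC-Veh the sum was mostly Postn (a mean of 38153, against 1348 in Sham-Veh) and Cilp (10953, against 444). Not all 8 moved with it. Acta2 had means of 1746 in Sham-Veh, 1661 in TAC-Veh and 1486 in TAC-THZ1, and Fap of 141, 184 and 152 in the same order. In bulk tissue, more cells of a type and more RNA per cell cannot be told apart, and the part of activated fibroblasts in the values of the members was not tested.

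The atrial cardiomyocyte list also moved with the family. Its sum had medians of 3070 (vehicle) and 3278 (THZ1) in sham hearts, 84255 in TAC-Veh and 27470 in TAC-THZ1, nearly all of it Nppa, the natriuretic peptide gene that loaded ventricular muscle also expresses (a mean of 3312 in Sham-Veh and 103973 in TAC-Veh), while Myl7, Sln and Bmp10 had group means of at most 2.33. The ventricular cardiomyocyte sum went the other way, with medians of 1425220 in TAC-Veh, 1783890 in TAC-THZ1 and 1855680 and 1836670 in the vehicle and THZ1 sham hearts. The sum over 10 general fibroblast markers had a median of 107059 in TAC-Veh and 67618 in TAC-THZ1, against 63916 (vehicle) and 65697 (THZ1) in sham hearts. Its largest gene, Gsn, differed little (means of 33036 in Sham-Veh and 34063 in TAC-Veh). In TAC-THZ1, Col1a1, Col1a2 and Col3a1 had means below those of Sham-THZ1. Dcn, Lum, Tcf21, Mfap5 and Dpt had means above them, and Gsn and Pdgfra had nearly equal means. Markers of platelets, which store Thbs1, had median sums of 452 (346 to 469) in TAC-Veh and 556 (405 to 684) in TAC-THZ1, which overlapped. They had 283 and 299 in the vehicle and THZ1 sham groups. In that order of groups, macrophage markers had median sums of 15766, 15093, 10325 and 10582, and endothelial markers of 23706, 20491, 24835 and 26349. Smooth muscle and pericyte markers, which cover the mural cells of vessels, had 23154, 25729, 35937 and 34976. Erythroid markers had 11850, 13709, 6852 and 8730. Most of the smooth muscle and pericyte sum was Rgs5 and Abcc9, with means of 16846 and 9858 in Sham-Veh and 13083 and 4235 in TAC-Veh. Tagln, Cnn1 and Cspg4 of that list instead had higher means in TAC-Veh than in Sham-Veh. Among markers of the tissues for which Comp and Thbs4 are best known, the chondrocyte list had sums of 86.6 to 124 in Sham-Veh, 99.3 to 137 in Sham-THZ1, 77.6 to 342 in TAC-Veh (median 206) and 85.3 to 174 in TAC-THZ1 (median 93.7). Most of that was Sox9, at a mean of 182 in TAC-Veh and 68.1 in Sham-Veh. The defining cartilage genes were near 0: 6 of the 8 markers were below the filter, with Col9a1 at 0 in all 16 libraries, Col2a1 at a mean of no more than 2.76 and Acan of no more than 8.88 in any group. Skeletal muscle markers summed to no more than 56.2 in any library. Beyond those values, the part of these cell types in the results was not tested.

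Neighbouring genes did not share the size of the differences. Crtc1, a transcriptional coactivator whose gene ends 290 bases from Comp on the opposite strand, had mean normalized counts of 302 and 347 in sham hearts (vehicle, then THZ1) and of 230 and 260 in TAC hearts. Upf1, the helicase of nonsense-mediated decay on the other side of Comp, had 1260, 1360, 948 and 1060 in the same order. Mtx1, a mitochondrial import gene, overlaps Thbs3 on the opposite strand and was kept apart from it by stranded counting; its means were 368, 392, 370 and 413 in that order, with a log2 fold change of 0.01 in TAC-Veh against Sham-Veh (limma, adjusted p = 0.966). Mtx3, beside Thbs4, had a log2 fold change of 0.03 in that comparison (adjusted p = 0.803), and Serinc5, on the other side of Thbs4, fell by 0.34 on the log2 scale (adjusted p = 0.00213). Smoc2, a matricellular neighbour of Thbs2, rose by 0.46 (adjusted p = 0.000809) where Thbs2 was lower. Among other neighbours, Gm3222 (beside Thbs2), Muc1 (beside Thbs3) and Rasgrp1 (beside Thbs1) had mean levels between 12.1 and 45.2 normalized counts in every group with no call in TAC-Veh against Sham-Veh, and Fsip1 (beside Thbs1) was near 0 and not tested.

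The genes with the most similar profile differed by member. Over 16 libraries and 10312 genes, the log2 levels of Thbs4 were closest to Ltbp2, an elastic fibre protein of the family named latent TGF-beta binding proteins (Pearson r = 0.994), Bgn, the small proteoglycan biglycan (0.993), and Frzb, a secreted Wnt antagonist (0.993). Those of Comp were closest to Cilp, another cartilage matrix protein (0.992), Bgn (0.992) and Ltbp2 (0.991). Thbs4 and Comp thus shared 2 of their 3 closest genes by this measure. By Spearman's rho, and by Pearson r after the group means were taken out, their 3 closest genes were all different. Ltbp2 had group means of 115 and 103 in sham hearts (vehicle, then THZ1) and of 4216 and 441 in TAC hearts, and Cilp of 444, 412, 10953 and 1459 in the same order. Thbs1 was closest to Pmepa1, a TGF-beta-induced inhibitor of Smad signalling (0.985), Anxa5 (0.983) and the heparan sulfate proteoglycan Sdc1 (0.981). Sdc1, like Thbs1, had a TAC-THZ1 mean (136) near that of the sham groups (126 and 141) and a TAC-Veh mean of 256. Thbs3 was closest to the actin-capping gene Capg (0.984), Gpx3 (0.982) and Shisa5 (0.981), and Thbs2, with weaker values, to Ckap5 (0.909), Pdzd8 (0.893) and Zbtb10 (0.888). Libraries of a group share their condition, so these values describe the group pattern as much as any gene.

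Between members, the closest pair was Thbs4 and Comp, with r = 0.991 over the 16 libraries and 0.871 after the group means were taken out. Thbs3 and Thbs4 had 0.957 and 0.862 by the same measures. Thbs2 was negatively correlated with the other members over all libraries (-0.42 to -0.68) but positively within groups (0.23 to 0.51). Each library's total read number and composition enter all 5 values alike.

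The pathways around the family were read from 6 lists holding 105 genes, of which 92 were above the filter. In TAC-Veh against Sham-Veh 46 of the 92 rose and 19 fell, against 21.4% and 23.6% of all genes tested. In TAC-THZ1 against TAC-Veh 5 rose and 43 fell, against 15.1% and 14.2%. In TAC-THZ1 against Sham-THZ1 9 rose and 21 fell, against 11.4% and 12.8%, so that the share that rose was near that of all genes. Of the 92, Tnmd, Cilp2 and Col9a2 passed the filter only through their TAC-Veh libraries. Without these 3, 43 rose and 19 fell in TAC-Veh, 5 and 40 in TAC-THZ1 against TAC-Veh, and 8 and 21 in TAC-THZ1 against Sham-THZ1. In Sham-THZ1 against Sham-Veh limma called 0 of 92 (4 had an unadjusted p under 0.05), and edgeR and DESeq2 also called 0. A limma fit on the sham groups alone, without the wider spread of the TAC libraries, called 10. The lists were picked with results of these data known and partly overlap.

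In TAC-Veh against Sham-Veh, receptors and cell-surface partners were called about as often as all genes. Of 18, 5 rose and 5 fell in TAC-Veh against Sham-Veh, beside 21.4% and 23.6% of all genes, with a median log2 fold change of -0.05 beside 0.00 over all genes. Lrp8, a lipoprotein receptor that binds Thbs1, rose from a mean of 24.4 to 313 ± 110 normalized counts (log2 fold change 3.68, SE 0.31, adjusted p = 3.75e-07) and still stood at 84.4 ± 21.5 in TAC-THZ1, above Sham-THZ1 at 18.9 ± 5.31 (adjusted p = 0.000638). Its relative Vldlr, far more abundant, fell by 0.72 (adjusted p = 0.000346). Itgb3, the beta chain of the vitronectin receptor that thrombospondins bind, rose by 1.22 (adjusted p = 0.0113), and Sdc1 rose by 0.99 (adjusted p = 0.000118). Notch3, a receptor of vascular mural cells that Thbs2 binds, fell by 0.70 (adjusted p = 0.0048), and like Thbs2 it was also lower in TAC-THZ1 than in Sham-THZ1 (it fell by 0.93, adjusted p = 0.0026). The others called in TAC-Veh, named after their values were seen, were Lrp1 (0.52) and the integrin chain Itgb1 (0.28) among those that rose and the calcium channel subunit Cacna2d1 (-0.53), Cd36 (-0.45) and Itga3 (-0.30) among those that fell. The call on Itga3 was lost in 9 fits that left out a library (adjusted p up to 0.139) and that on Lrp1 in 5 (up to 0.116). In TAC-THZ1 against TAC-Veh 0 of the 18 rose and 6 fell, beside 15.1% and 14.2% of all genes. Against Sham-THZ1, TAC-THZ1 had Lrp8 higher and 7 lower, beside 11.4% and 12.8% of all genes, so falls were more frequent in this list.

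Among 20 genes of TGF-beta activation and response, 14 rose and 4 fell in TAC-Veh against Sham-Veh, with a median log2 fold change of 0.55. Over all genes 21.4% rose and 23.6% fell, so the share that fell was near that of all genes. Ltbp2 rose by 5.08 (SE 0.35, adjusted p = 6.85e-08). Ctgf, a matricellular TGF-beta target, rose from 1828 ± 322 to 16950 ± 11095 normalized counts (log2 fold change 2.97, adjusted p = 5.94e-06). Among those that fell were Itgb6, a chain of a TGF-beta-activating integrin (fell by 1.23, adjusted p = 0.0119), and Ltbp1 (fell by 0.61, adjusted p = 8.49e-05), beside Tgfbr3 (-0.60) and Furin (-0.30), named after their values were seen. Under THZ1, 12 fell and 0 rose relative to TAC-Veh, beside 14.2% and 15.1% of all genes. Against Sham-THZ1, TAC-THZ1 had 3 higher (Ltbp2, Bambi and Tgfb2) and 4 lower (Ltbp4, Furin, Ltbp1 and Tgfbr3), beside 11.4% and 12.8% of all genes. Ltbp2 rose there by 2.02 (adjusted p = 0.00152), beside 2.23 for Thbs4.

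The endoplasmic reticulum list, which holds Atf6, the chaperones that it induces and other folding and degradation genes, showed small differences in both directions. Of 24, 6 rose and 7 fell in TAC-Veh against Sham-Veh, against 21.4% and 23.6% of all genes, with a median log2 fold change of 0.02. The largest rises were those of the disulfide isomerases Pdia4 (0.43, adjusted p = 0.0105) and Pdia3 (0.37, adjusted p = 0.0015) and of Creld2 (0.39, adjusted p = 0.0097). Herpud1, of the degradation pathway, fell by 0.68 (adjusted p = 0.00767) and the lectin chaperone Canx fell by 0.50 (adjusted p = 9.38e-05). Hspa5, the chaperone BiP that Atf6 induces, was also among those that fell (log2 fold change -0.46, named after its value was seen). All of these were small beside the difference of 5.29 in Thbs4. Relative to TAC-Veh, TAC-THZ1 had 2 that rose (Herpud1 and Ddit3, each lost in some fits with a library left out) and 6 that fell, beside 15.1% and 14.2% of all genes. Against Sham-THZ1 TAC-THZ1 had 1 higher (Ddit3) and 6 lower, beside 11.4% and 12.8% of all genes.

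Of 16 matrix proteins that bind Comp, 10 were above the filter, and the 6 below it (Col2a1, Col9a1, Acan, Matn1, Matn3 and Matn4) are genes of cartilage. One of the 10, Col9a2, passed only through its TAC-Veh libraries. Of the other 9, 7 rose and 0 fell in TAC-Veh against Sham-Veh, beside 21.4% and 23.6% of all genes, with a median log2 fold change of 1.11. Col12a1, a fibril-associated collagen of tendon, rose from 34.4 ± 3.01 to 1133 ± 773 normalized counts (log2 fold change 4.71, SE 0.41, adjusted p = 5.07e-07). Col14a1, its relative, rose by 1.47 (adjusted p = 0.000287) and Col1a2, of the main fibrillar collagen, by 1.36 (adjusted p = 3.7e-05). In TAC-THZ1 against TAC-Veh 6 of the 9 fell, beside 14.2% of all genes, and Col12a1 fell by 3.72 (adjusted p = 4.25e-05). Against Sham-THZ1, 0 of the 9 were higher in TAC-THZ1 and 1 (Col1a1, named after its value was seen) was lower, beside 11.4% and 12.8% of all genes. Comp itself was higher there. Col12a1 had a log2 fold change of 0.96 in that comparison (adjusted p = 0.0976), and Col1a2 of -0.13 (adjusted p = 0.644).

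Of the 18 tendon and cartilage genes 10 were above the filter. The tendon gene Tnmd (tenomodulin) and Cilp2 passed it only through TAC-Veh, with means of 104 and 28.7 normalized counts there and of at most 4.63 and 2.62 in any other group. Of the remaining 8, 5 rose and 1 fell in TAC-Veh against Sham-Veh (median log2 fold change 1.57), beside 21.4% and 23.6% of all genes. Fmod, fibromodulin, a small proteoglycan of tendon, rose from 11.3 ± 5.06 to 686 ± 300 normalized counts (log2 fold change 5.78, SE 0.37, adjusted p = 5.18e-08), and Cilp rose by 4.58 (adjusted p = 6.45e-08). Prg4, the joint lubricant lubricin, rose by 1.99 (adjusted p = 2.9e-05), and Col11a2 fell by 0.65 (adjusted p = 0.00643). In TAC-THZ1 against Sham-THZ1, 3 of the 8 were higher (11.4% of all genes) and 1 was lower (12.8% of all genes). The lower gene was Col11a2, a call that 9 fits with a library left out lost. Fmod rose by 2.46 in that comparison (adjusted p = 0.000715) and Cilp by 1.73 (adjusted p = 0.00161), beside 2.23 for Thbs4 and 2.30 for Comp. The third higher gene was the tendon transcription factor Scx (0.75), named, like Tnmd and Cilp2, after its value was seen. Of the 8, 5 fell and 0 rose in TAC-THZ1 against TAC-Veh, beside 14.2% and 15.1% of all genes.

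Of 12 proteases that cut thrombospondins or are regulated by them, 11 were above the filter. Among these, 6 rose and 2 fell in TAC-Veh against Sham-Veh (median log2 fold change 0.74), beside 21.4% and 23.6% of all genes. Mmp2, the gelatinase that Thbs2 helps to clear, rose from 1593 ± 119 to 4170 ± 1018 normalized counts (log2 fold change 1.36, SE 0.14, adjusted p = 2.15e-06). It stood at 1642 ± 209 in TAC-THZ1, with a log2 fold change of -0.05 against Sham-THZ1 (adjusted p = 0.82). The plasminogen activator Plat rose by 0.82 (adjusted p = 0.000245) and Adamts1, which cleaves Thbs1 and Thbs2, by 0.76 (adjusted p = 0.0215). Adamts7, which cleaves Comp, went the other way: it fell from 784 ± 78.8 to 218 ± 97.9 normalized counts (it fell by 1.96 on the log2 scale, SE 0.24, adjusted p = 1.15e-05) and rose by 1.35 in TAC-THZ1 against TAC-Veh (adjusted p = 0.000933). Comp and Adamts7 thus had opposite differences in both comparisons. Htra1, another Comp-degrading protease, fell by 0.63 in TAC-Veh (adjusted p = 2.62e-06). Adamts12 and Adamts4, at lower levels than Adamts7 and named after their values were seen, moved in the same direction as Comp in both comparisons. Adamts12 had log2 fold changes of 0.75 in TAC-Veh against Sham-Veh (adjusted p = 0.0252) and -1.32 in TAC-THZ1 against TAC-Veh (adjusted p = 0.00161). Those of Adamts4 were 1.64 (adjusted p = 0.00803) and -1.93 (adjusted p = 0.00524). Between TAC-Veh and TAC-THZ1, 3 rose (Adamts7, Htra1 and Mmp9, the last named after its value was seen) and 5 fell, beside 15.1% and 14.2% of all genes. Against Sham-THZ1 TAC-THZ1 had 0 higher and 2 lower (Htra1 and Mmp14), beside 11.4% and 12.8% of all genes. Adjusted p-values of the list genes and neighbours are limma's over all 13331 genes.

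**Figure D4:**
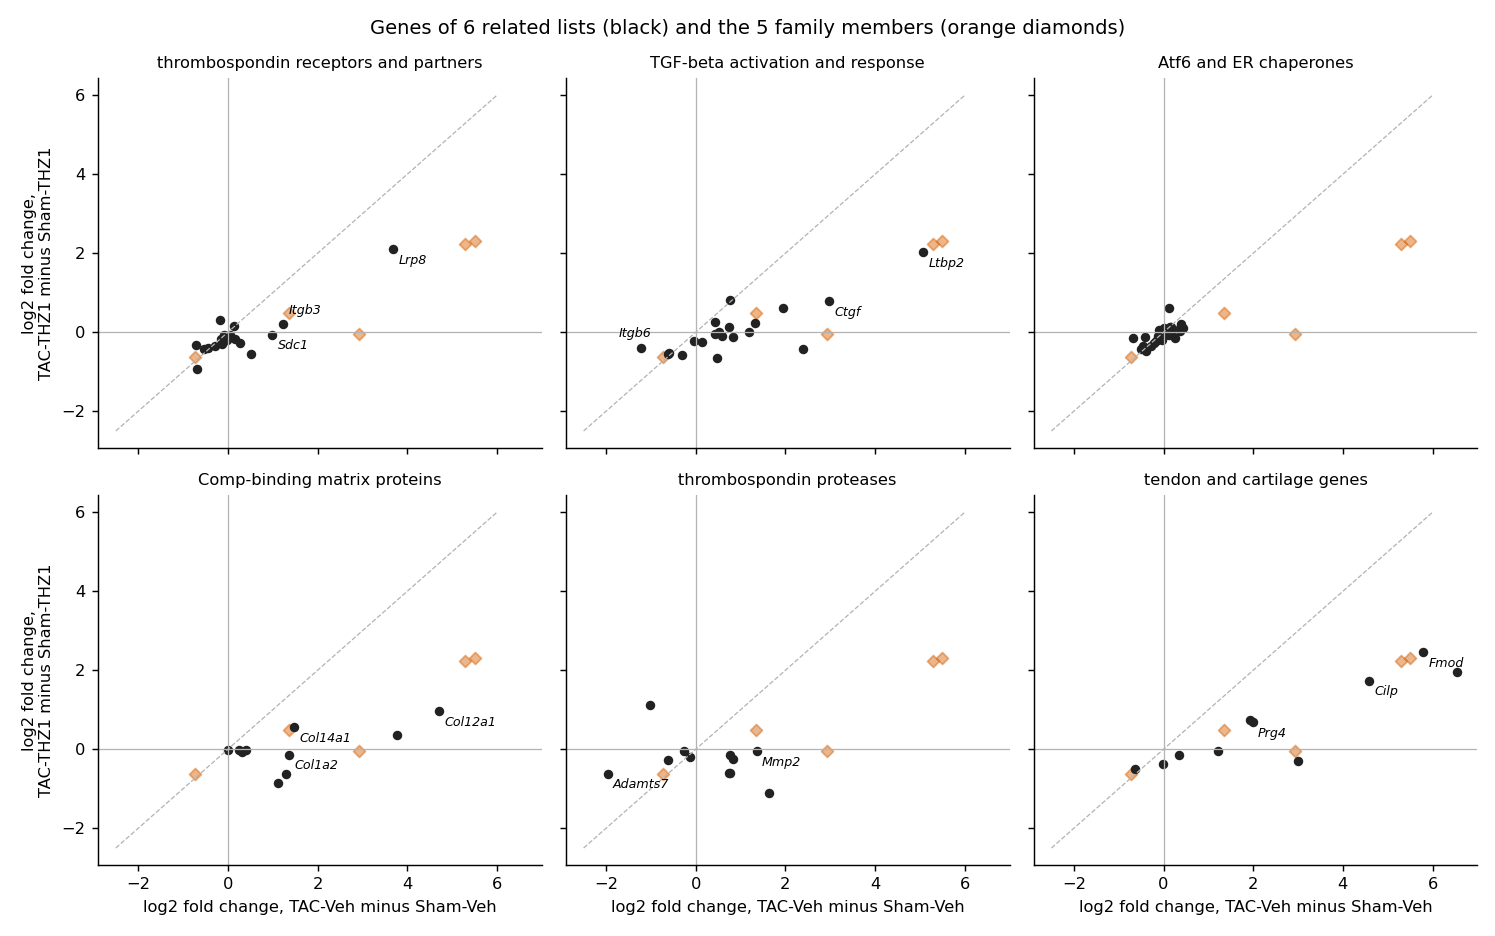
Each panel plots, for the genes of a list (black points, some of those with large differences named), the log2 fold change of TAC-Veh against Sham-Veh on the horizontal axis and of TAC-THZ1 against Sham-THZ1, which shares no library with it, on the vertical axis; orange diamonds are the 5 family members and the dashed line marks equal values. Ltbp2, Lrp8, Fmod and Cilp lie near Thbs4 and Comp, between the dashed line and the horizontal axis, and Mmp2 and Col1a2 lie near the horizontal axis as Thbs1 does.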

How the data were processed

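Total RNA from ventricle pieces was made into stranded mRNA libraries. Per the labels and methods, the authors aligned reads with TopHat2 (version 2.1.1) to mm9, counted them by strand with HTSeq, and deposited 1 table of DESeq2-normalized counts (signal: reads divided by a size factor). Whole reads were recovered from the steps of the values (100% whole within 1e-06 read). Replicate libraries differed beyond sampling noise, and none was merged. The sources used here number the libraries of a group without tying each to an animal, so p-values measure the spread between libraries.

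Genes with at least 10 normalized counts in at least 4 libraries were tested on log2(value + 1) by limma (3.58.1, trend, all 16 libraries, group means, no covariate), with Benjamini-Hochberg adjustment over 13331 genes and calls at an adjusted p under 0.05. Fold changes on this scale understate changes of low genes. edgeR (4.0.16) and DESeq2 (1.42.0) on recovered reads were alternatives. Exon lengths came from GENCODE vM1, promoters from RefSeq. The limma step was tested on simulated data.

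The members and lists were chosen with earlier results of these data known. Named were the 5 members, up to 3 genes with the largest positive and 2 with the most negative log2 fold change per list among those called in TAC-Veh against Sham-Veh and with mean normalized counts of 50 or more, the 3 closest genes and the nearest coding genes on each side, some of which are not reported here. Replicate numbers are shared between groups, but same-numbered libraries did not deviate together (correlations from -0.43 to 0.12, over 0.1 in 1 of 16 pairs).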

Additional observations from a re-analysis of the deposited data

Results flagged for a closer look

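Thbs4 stood at 128 normalized counts in Sham-Veh library 1, apart from the other 3 libraries of the group at 101 to 104. The gap to the nearest of them was 0.883 of the range of the group, above Dixon's 95% limit for 4 samples. It was 1 of 20 combinations of gene and group examined, and chance gives about 1 in 20.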

How the results depend on the processing

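Over 13 other choices of pseudocount, filter, scaling, weighting, samples and tool and 16 fits that each left out a library, no member and no list gene that was called changed direction while staying called, and the calls on Thbs2, Thbs4 and Comp in TAC-THZ1 against Sham-THZ1 held throughout (highest adjusted p = 0.0296, for Thbs2). The exception among members was Thbs3, whose log2 fold change there (0.47, adjusted p = 0.0811) passed the threshold with array weights (0.41, adjusted p = 0.0376), with DESeq2 on recovered reads (0.52, adjusted p = 0.0371) and without TAC-THZ1 library 2 (0.67, adjusted p = 0.0122). It ranged from 0.32 to 0.67 with a library left out. Genes of the 6 lists called in Sham-THZ1 against Sham-Veh went from 0 to 10 in a fit on the groups compared alone and to 6 with array weights, with Notch3 under both. Shares of all genes called in those fits are not given here, so these counts are not read as a result about the lists. With a fold threshold added, list genes called went from 65 to 25 in TAC-Veh against Sham-Veh, from 48 to 25 in TAC-THZ1 against TAC-Veh and from 30 to 5 in TAC-THZ1 against Sham-THZ1; fewer pass by construction. At least 1 fit with a library left out lost the call of 10 of 65 list genes in TAC-Veh against Sham-Veh, 9 of 48 in TAC-THZ1 against TAC-Veh and 9 of 30 in TAC-THZ1 against Sham-THZ1. They included Adamts1 (without Sham-Veh library 3 or TAC-Veh library 1 or 2, adjusted p up to 0.0703), Lrp1 (Sham-Veh 1, 2 or 3 or TAC-Veh 2 or 4, up to 0.116) and Itga3 (Sham-Veh 2, 3 or 4, TAC-Veh 2 or 3 or any Sham-THZ1 library, up to 0.139) in the first of these, Pdia4 and Herpud1 (TAC-Veh 2 or 4 or TAC-THZ1 2, Pdia4 up to 0.0861) and Ddit3 (TAC-Veh 1 or 4 or TAC-THZ1 1, 2 or 3, up to 0.113) in the second, and Mmp14 (Sham-THZ1 1, 2 or 4 or TAC-THZ1 2 or 4, up to 0.108) and Col11a2 (Sham-Veh 1 or 2, Sham-THZ1 1, 2 or 4 or any TAC-THZ1 library, up to 0.128) in the third. Tnmd, called in TAC-THZ1 against Sham-THZ1 (1.95), was not at a pseudocount of 10 (0.47, adjusted p = 0.205). Leaving out the 3 list genes that passed the filter only through TAC-Veh, a choice made after seeing the data, left 62, 45 and 29 list genes called in these comparisons. With the longest transcript as the length, the Thbs3 share of the family moved from 13.5% to 15.5% in Sham-Veh, from 14.8% to 16.99% in Sham-THZ1 and from 12.9% to 14.8% in TAC-THZ1. The closest genes depended on the measure: of the 3 genes for each member, Spearman's rho kept 0 for Thbs1, 1 for Thbs2, 1 for Thbs3, 0 for Thbs4 and 0 for Comp, and within-group deviations kept 1, 0, 2, 1 and 0. Apart from these, the cause of a change was not tested.

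The replicate numbers did not pair the libraries. With the replicate number as a block (replicate block), 3 of 5 members were called in TAC-THZ1 against Sham-THZ1 as without it, and list genes called came to 65 in TAC-Veh against Sham-Veh, 47 in TAC-THZ1 against TAC-Veh and 31 in TAC-THZ1 against Sham-THZ1. The lowest values rested on 33 to 81 reads (Comp in sham), which limits the precision of fold changes against sham for that gene.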
